A study of Mus musculus with 6 samples.

Results

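The lysosomal list holds 40 genes of acid hydrolases, their cofactors, proteins of the lysosomal membrane and the transcription factors that control them, and they were taken by gene symbol from a table of 15139 rows. All 40 were found, once each, and all 40 passed the filter on low values (at least 1 FPKM in at least 2 libraries), among 11365 genes tested. The data are bulk RNA-seq of mouse bone marrow cells cultured to week 1 in RPMI with 10% fetal bovine serum. The medium held the cytokines IL3 (interleukin 3) at 10 ng/ml and SCF (stem cell factor, the ligand of Kit) at 50 ng/ml. The labels write the genotypes as MxCre+v: Dnmt3a+/+ for the wild type (WT, 3 libraries) and MxCre+v: Dnmt3a-/- for the knockout (KO), so both groups carry Mx-Cre, a recombinase under an interferon-inducible promoter that is active in blood cells. Replicates 2 and 3 of the knockout were used, and its replicate 1 was not analysed here. Dnmt3a is a de novo DNA methyltransferase, and the series asks how its loss alters myeloid cells. The labels give no age or sex of the mice, also use the word knockdown for the knockout, and leave unsaid whether each replicate is another mouse. The p-values therefore measure the spread between these libraries, and how much of it is technical is not known.

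Lysosomes are acidic organelles in which hydrolases break down protein, glycans and lipids taken in from outside or delivered by autophagy. Most of the soluble enzymes are made as precursors in the secretory pathway and carried to the lysosome by mannose 6-phosphate receptors or sortilin, and heavily glycosylated membrane proteins line the organelle. Macrophages are rich in these enzymes, and mast cells and granulocytes hold many of them in granules that are themselves related to lysosomes. TFEB and TFE3, of the MiT family of basic helix-loop-helix factors, switch on many lysosomal genes through E-box elements in their promoters.

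Values are FPKM, fragments scaled by gene length and by the size of the library, which can be compared between genes. FPKM hold no read totals, so that the depth of each library is unknown, and they summed to between 560387 and 604368 per library. Library values are listed in the order of WT replicates 1, 2 and 3 and then KO replicates 2 and 3. Dnmt3a itself (chromosome 12, 3801559 to 3914443, GRCm38) was at 6.68, 9.99 and 9.04 FPKM for WT against 2.58 and 3.42 FPKM for KO (log2 change -1.25 ± 0.17 SE, adjusted p = 0.00279). Sex was not balanced: Xist, the RNA of the inactive X chromosome, was at 14.4 and 15.3 FPKM in WT replicates 2 and 3 and at most 0.02 FPKM in the other libraries, so that WT replicate 1 is the WT library of the same sex as both knockout libraries. WT replicate 1 therefore did not come from the same mouse as WT replicates 2 and 3. Of the marker lists, 12 of 14 monocyte and macrophage genes fell and none rose, 9 of 12 mast cell genes rose and none fell, and 8 of 9 tested neutrophil genes fell and none rose. No marker of those 3 lists that is in the table was at 0 in any library. Of 6 stromal and endothelial genes, Col1a1, Col3a1, Cxcl12 and Cdh5 were at most 0.51 FPKM in every library. Pecam1, which blood cells also express, was at 68.5 to 114 FPKM and rose, and Pdgfrb, at 1.77 to 4.26 FPKM, did not pass. Of the B cell genes in the table, Cd79a was at most 0.47 FPKM and Cd79b at 0.98 to 2.32 FPKM, with no call.

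Of the 40 lysosomal genes, 22 fell in the knockout, 3 rose and 15 did not pass the test (limma on log2(FPKM + 1), Benjamini-Hochberg adjusted p under 0.05 over all tested genes). The share that fell was 55.0%, where 13.0% of all tested genes fell, and 9.08% of all tested genes rose (22.1% in either direction). Of the 40 changes 26 were negative (57.0% of all tested genes). The median log2 change of the 40 genes was -0.36, against -0.04 over all tested genes. Changes of at least 2-fold were called for 9 genes that fell and 1 that rose, where 2.89% of all tested genes fell and 1.77% rose by that much. Both knockout libraries lay below all WT libraries for 25 genes and above them for 7, where 30.8% and 20.4% of tested genes did so. The split of the background moved with scaling: after upper-quartile scaling 52.5% of all calls were upward, against 41.2% as deposited, and 19 lysosomal genes fell and 3 rose. In bulk RNA, fewer cells of a type and less RNA of a gene per cell cannot be told apart. The monocyte and macrophage markers had a median log2 change of -1.46, and 10 of 14 fell by at least 2-fold. Their summed level was 1932 to 1994 FPKM in WT and 1388 to 1452 FPKM in the knockout. Ly6c2, which did not pass, gave 952 to 1078 FPKM of the sum in each WT library and 934 and 1025 FPKM in the knockout, and the rest of the sum was 889 to 1041 FPKM and 427 and 454 FPKM. The other marker that did not pass was Adgre1, with a WT mean of 102 FPKM and a knockout mean of 98.7 FPKM (log2 change -0.05 ± 0.12 SE, adjusted p = 0.801). The mast cell markers had a median of 1.10 and sums of 12151 to 13937 FPKM in WT and 28579 to 32742 FPKM in the knockout. The part of these shifts in the lysosomal changes was not tested.

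Set against WT replicate 1 alone, which is what a covariate for sex amounts to here, 13 of the 22 genes still passed as lower and 1 of the 3 as higher, while 6.97% of all genes were then called lower and 4.58% higher. No called member changed its direction under any of the 13 alternatives run. The 12 that fell under each of them were Ctss, Ctsb, Ctsz, Ctsc, Psap, Lipa, Lyz2, Grn, Cd68, Lamp1, Tfeb and Tfe3, and the gene that rose under each was Gm2a. Summed over the list, the 40 genes made up 2.70 to 2.99% of all FPKM in WT and 1.66 and 1.67% in the knockout. Without Lyz2, the most abundant member in WT, they made up 1.70 to 2.10% and 1.40 and 1.44%.

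**Figure D1:**
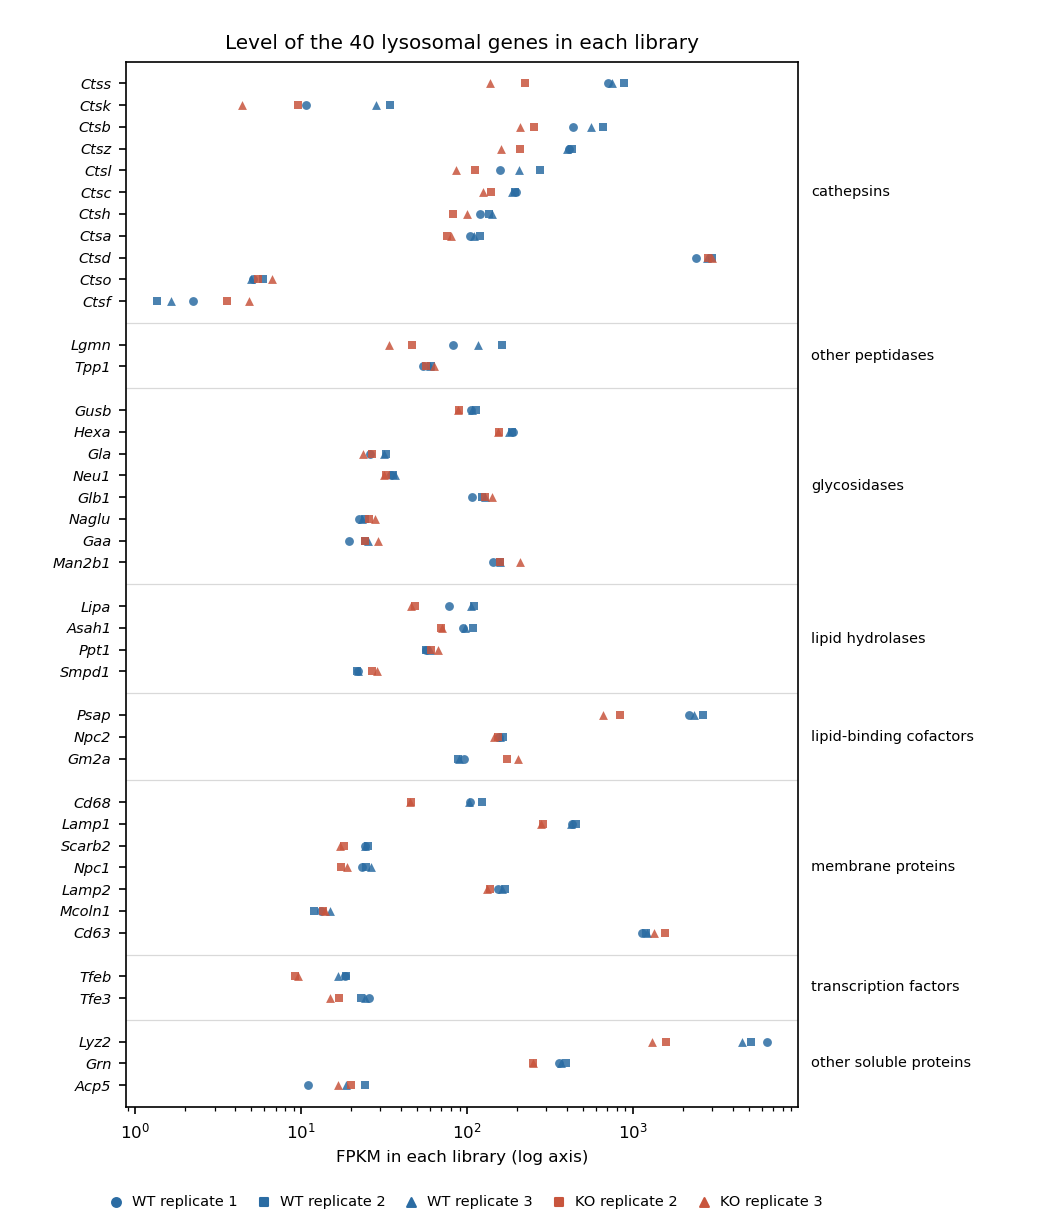
Level of each of the 40 genes (FPKM, log axis) in the 5 libraries, with WT in blue and the knockout in red and 1 symbol per replicate number. The knockout points of Ctss, Psap, Lyz2 and Cd68 lie apart to the left of WT, those of Gm2a to the right, and those of Ctsd among the WT points.

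Both transcription factors on the list fell. Tfeb was at 18.4, 18.5 and 16.6 FPKM for WT against 9.12 and 9.49 FPKM for KO (log2 change -0.87 ± 0.09 SE, adjusted p = 0.000736). The libraries of each genotype lay close together, and the knockout held about the same level in both. Tfe3, which acts on many of the same genes, was at 25.5, 23.04 and 24.2 FPKM for WT against 16.8 and 14.98 FPKM for KO (log2 change -0.58 ± 0.09 SE, adjusted p = 0.00386). Every knockout library was below every WT library for both factors. Of the other MiT family members, Tfec, found mainly in myeloid cells, also fell, from a WT mean of 45.7 ± 1.002 FPKM (SD, n = 3) to a knockout mean of 14.1 ± 3.75 FPKM (SD, n = 2), a difference of -1.65 ± 0.14 SE on the log2 scale (adjusted p = 0.000485). Mitf, the MiT factor that mast cells depend on, went the other way, from a WT mean of 9.34 ± 0.5198 FPKM (SD, n = 3) to a knockout mean of 12.4 ± 0.7495 FPKM (SD, n = 2) (log2 change 0.37 ± 0.09 SE, adjusted p = 0.0247). The call of Mitf was lost with the sex covariate (adjusted p = 0.168). It was also lost without WT replicate 1, 2 or 3 (0.0575, 0.0585 and 0.0908) and without KO replicate 2 (0.0786). The kinase complex mTORC1, when docked on the lysosome, holds TFEB in the cytosol. Among all tested genes 13.0% fell and 9.08% rose, with a median of -0.04. Whether the list of MiT factors and docking proteins differs from these values was not tested. That list had 3 of 15 tested genes that fell and 1 that rose, with a median of -0.06. Only 1 fell without KO replicate 3, and only 1 with the sex covariate. Fnip2, a partner of folliculin in that docking, was among those that fell (log2 change -0.63 ± 0.12 SE, adjusted p = 0.0113), a call that was lost with the sex covariate (0.106) and without KO replicate 3 (0.0531).

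The promoters are shown because TFEB and TFE3 bind the E-box CACGTG, and a longer palindrome around it is the usual form of the lysosomal element. CACGTG, TCACGTGA and the latter with a G before and a C after it, each nested in the next and the same on both strands, were searched. The windows ran from 250 bases before to 50 after those RefSeq starts (GRCm38.p6) that were given. For Ctsl, Cd63 and Man2b1 the only window lay inside the gene, so that the first base of these genes was not covered. Windows were given for 36 of the 40 genes, and not for Ctsb, Ctsh, Asah1 and Npc1. CACGTG was found for 11 of the 36 genes, where 7.15% of all 32851 windows and 12% of the tested genes with a window hold it. TCACGTGA was found for 4 of them (0.974% of windows and 2.37% of tested genes) and the longest word for none (0.326% of windows). Of the 11 genes with CACGTG, 4 fell, 1 rose and 6 did not pass, and of the 25 without it 14 fell, 2 rose and 9 did not pass. The windows of the 5 called genes with the word, and of Ctsd, the gene with the highest WT level among those with TCACGTGA that did not pass, are printed here from 250 bases before to 30 after the start, 5′ to 3′ on the strand of the gene, with CACGTG or TCACGTGA in capitals.
Ctsa (strand +, chr2:164833523-164833802): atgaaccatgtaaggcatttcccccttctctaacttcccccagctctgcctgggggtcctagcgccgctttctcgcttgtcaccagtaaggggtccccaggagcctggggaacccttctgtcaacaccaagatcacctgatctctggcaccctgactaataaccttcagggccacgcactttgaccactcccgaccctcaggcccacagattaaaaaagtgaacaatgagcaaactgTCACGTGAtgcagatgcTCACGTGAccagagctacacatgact
Lamp1 (strand +, chr8:13158911-13159190): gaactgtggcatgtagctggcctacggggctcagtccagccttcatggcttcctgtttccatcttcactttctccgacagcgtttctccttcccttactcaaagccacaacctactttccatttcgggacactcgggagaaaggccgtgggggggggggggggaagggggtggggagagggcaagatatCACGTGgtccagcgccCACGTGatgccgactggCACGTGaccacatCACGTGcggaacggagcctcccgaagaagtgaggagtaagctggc
Ctsl (strand -, chr13:64370491-64370770): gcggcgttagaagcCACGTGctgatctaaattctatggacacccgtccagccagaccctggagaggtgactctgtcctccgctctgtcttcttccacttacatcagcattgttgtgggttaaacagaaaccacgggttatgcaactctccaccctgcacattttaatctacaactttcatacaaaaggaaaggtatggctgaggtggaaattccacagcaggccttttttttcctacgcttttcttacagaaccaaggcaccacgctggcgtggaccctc
Lgmn (strand -, chr12:102439063-102439342): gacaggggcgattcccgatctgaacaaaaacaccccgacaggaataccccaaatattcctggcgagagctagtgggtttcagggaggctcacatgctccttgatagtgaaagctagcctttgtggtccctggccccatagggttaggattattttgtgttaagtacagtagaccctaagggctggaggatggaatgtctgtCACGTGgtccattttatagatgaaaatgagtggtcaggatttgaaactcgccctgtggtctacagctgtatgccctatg
Ctsf (strand +, chr19:4854915-4855194): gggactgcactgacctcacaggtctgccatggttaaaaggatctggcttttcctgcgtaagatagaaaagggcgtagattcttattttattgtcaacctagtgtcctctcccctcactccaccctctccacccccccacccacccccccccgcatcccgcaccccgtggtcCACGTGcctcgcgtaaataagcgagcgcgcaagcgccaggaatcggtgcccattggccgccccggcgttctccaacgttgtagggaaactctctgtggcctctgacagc
Ctsd (strand -, chr7:142387798-142388077): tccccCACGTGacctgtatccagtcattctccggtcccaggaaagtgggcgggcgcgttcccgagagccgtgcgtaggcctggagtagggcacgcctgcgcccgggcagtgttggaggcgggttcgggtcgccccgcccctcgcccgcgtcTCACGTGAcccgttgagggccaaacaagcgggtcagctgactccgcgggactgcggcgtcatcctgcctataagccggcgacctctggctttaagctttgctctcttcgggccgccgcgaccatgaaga
Lamp1 held the word 4 times, with first bases 61, 45, 28 and 15 bases before the start. Ctsa held TCACGTGA on each side of the second of its starts, and Ctsd held it with the inner word 98 bases before the start. The window of Lgmn is that of the second of its listed starts. That of Ctsl lies inside the gene, whose 5′ end is at 64370772 on chromosome 13. The words stand in the printed windows of genes that fell (Ctsa, Lamp1, Ctsl and Lgmn), that rose (Ctsf) and that did not pass (Ctsd).

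The cathepsins, the main lysosomal proteases, mostly fell: 7 of 11 fell, 1 rose and 3 did not pass, with a median of -0.55. Ctss, a cysteine protease that trims the invariant chain of MHC class II, fell most of all 40 genes, by 4.29 times. It was at 703, 884 and 747 FPKM for WT against 225 and 138 FPKM for KO (log2 change -2.13 ± 0.20 SE, adjusted p = 0.000638). KO replicate 3 was lower than KO replicate 2, and both were far below the lowest WT library. Of the dendritic cell list, which holds the antigen presentation genes, all 6 tested genes also fell, with a median of -3.00. Flt3, Cd209a, Zbtb46, Xcr1 and Clec9a of that list were under 1 FPKM in every library, and the part of such cells in the change of Ctss was not tested. Ctsb, a cysteine protease with both endo- and exopeptidase action, was at 433, 663 and 559.8 FPKM for WT against 252 and 207 FPKM for KO (log2 change -1.25 ± 0.18 SE, adjusted p = 0.00321). Ctsz, a cysteine carboxypeptidase, was at 411, 429 and 402 FPKM for WT against 209 and 161 FPKM for KO (log2 change -1.17 ± 0.12 SE, adjusted p = 0.000744). The WT libraries of Ctsz were nearly level, while those of Ctsb differed by 1.53 times between the lowest and the highest.

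Ctsl, a cysteine endopeptidase of general protein turnover, was at 157, 275 and 205 FPKM for WT against 112 and 85.5 FPKM for KO (log2 change -1.07 ± 0.22 SE, adjusted p = 0.0149). Its groups did not overlap, but its call was lost without KO replicate 3 (adjusted p = 0.0962) and with the sex covariate (0.102). A smaller drop was seen for Ctsc, the dipeptidyl peptidase that activates granule serine proteases of mast cells and neutrophils, at 198, 193 and 187 FPKM for WT against 140.0 and 124 FPKM for KO (log2 change -0.55 ± 0.08 SE, adjusted p = 0.00362). Ctsh, an aminopeptidase, was at 119, 135 and 141 FPKM for WT against 81.9 and 100.4 FPKM for KO (log2 change -0.53 ± 0.11 SE, adjusted p = 0.0156), and its call was lost without WT replicate 2 or 3 (adjusted p = 0.0557 and 0.0539) and with the sex covariate (0.143). Ctsa, a serine carboxypeptidase that also protects sialidase and β-galactosidase, was at 104, 119 and 109.5 FPKM for WT against 75.4 and 80.3 FPKM for KO (log2 change -0.50 ± 0.08 SE, adjusted p = 0.00578), without a call under the sex covariate (adjusted p = 0.0683). Exons of Ctsa share 495 bases with Pltp on the opposite strand, and Pltp, a lipid transfer protein gene, was at 40.9, 53.1 and 35.2 FPKM for WT against 6.42 and 3.45 FPKM for KO. Exons of Ctsb share 774 bases with Fdft1, at a WT mean of 35.04 FPKM against a knockout mean of 26.5 FPKM, also on the opposite strand, and those of Ctsl 1742 bases with an antisense transcript. Exons of Ctsd share 808 bases with the protein-coding gene Gm49369, and those of Ctsl 395 bases with the pseudogene Gm49230, both on the same strand. Npc1 shares 511 exonic bases with Rmc1 on the opposite strand. No source used here says whether the counting used strand, and the part of these partners was not tested.

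Ctsf, a cysteine protease with the lowest mean level of the 40 genes, was the cathepsin that rose, at 2.23, 1.34 and 1.63 FPKM for WT against 3.55 and 4.84 FPKM for KO (log2 change 0.93 ± 0.18 SE, adjusted p = 0.0107). Both knockout libraries were above all WT libraries, but the call was lost without KO replicate 3 (adjusted p = 0.0746) and with the sex covariate (0.0939). Ctsd, the main aspartic protease of the lysosome, was the most abundant cathepsin in every library, at 2411, 3011 and 2793 FPKM for WT against 2826 and 2984 FPKM for KO (log2 change 0.09 ± 0.13 SE, adjusted p = 0.658). Its knockout values lay inside the WT range. Of the summed cathepsin FPKM, Ctsd made up 52.4 to 53.9% in WT and 71.7 and 76.6% in KO replicates 2 and 3, and Ctss 14.4 to 15.4% and 5.70 and 3.55%. Ctso did not pass (5.11, 5.84 and 4.96 FPKM for WT against 5.46 and 6.67 FPKM for KO, log2 change 0.16, adjusted p = 0.381).

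Ctsk, the collagen-cleaving cathepsin of osteoclasts, was at 10.7, 34.1 and 28.1 FPKM for WT against 9.52 and 4.42 FPKM for KO. Its log2 change of -1.60 ± 0.48 SE did not pass (adjusted p = 0.0527). WT replicate 1 lay near the knockout and 3.20 times below WT replicate 2. Without WT replicate 1, the WT library of the same sex as the knockout, it passed, with a log2 change of -2.08 (adjusted p = 0.00406). It also passed after total scaling (0.0394). With the sex covariate, which sets the knockout against WT replicate 1, its log2 change was -0.63 and did not pass (adjusted p = 0.323). The WT libraries also differed in other genes. The WT values of Ctsb, Ctsf, Ctsl, Lgmn and Acp5 also spanned at least 1.5 times, and WT replicate 1 was the lowest in each of these except Ctsf. Over the whole list WT replicate 1 was the lowest WT library for 26 of 40 genes, against 35.0% of all tested genes. Of 6 tested genes of the osteoclast list 3 fell and 2 rose. Atp6v0d2 was at 32.4, 72.02 and 58.5 FPKM for WT against 25.2 and 19.3 FPKM for KO, and Dcstamp, needed for the fusion of osteoclast precursors, at 5.67, 5.58 and 6.13 FPKM for WT against 2.47 and 1.14 FPKM for KO. Dcstamp was level across WT, where Atp6v0d2 was lowest in WT replicate 1. Tnfrsf11a also fell (log2 change -0.62), while Nfatc1 and Itgb3 rose (0.48 and 0.51), and Mmp9 did not pass (adjusted p = 0.0759). Oscar was at 0.05 FPKM or less in every library. The monocyte and macrophage markers had a median deviation from the WT mean of 0.00, 0.17 and -0.12 in WT replicates 1, 2 and 3 on the log2 scale.

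Of the other peptidases, Lgmn, the asparaginyl endopeptidase that matures several cathepsins, was at 82.5, 163 and 117 FPKM for WT against 46.4 and 33.8 FPKM for KO (log2 change -1.53 ± 0.27 SE, adjusted p = 0.00706). It fell by 3.01 times with no overlap of the groups, and its call was lost without KO replicate 3 (adjusted p = 0.0572). Tpp1, a tripeptidyl peptidase whose loss causes a form of Batten disease, did not pass, at 54.5, 60.96 and 60.1 FPKM for WT against 56.4 and 62.9 FPKM for KO (log2 change 0.03, adjusted p = 0.863).

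The cystatins inhibit the cysteine cathepsins, and of 8 tested genes 2 fell and 1 rose. Among all tested genes 13.0% fell and 9.08% rose, and whether the cystatin counts differ from these shares was not tested. The cystatin changes were negative for 7 of the 8, against 57.0% of all tested genes, with a median of -0.69. Cst7, which encodes cystatin F of the endosomes and lysosomes of immune cells, rose and was at 159, 156 and 175 FPKM for WT against 293 and 290.4 FPKM for KO (log2 change 0.83 ± 0.08 SE, adjusted p = 0.000662). Cstb, a cytosolic cystatin, fell from a WT mean of 426 ± 30.4 FPKM (SD, n = 3) to a knockout mean of 228 ± 46.2 FPKM (SD, n = 2) (log2 change -0.91 ± 0.13 SE, adjusted p = 0.00336). Stfa1, one of a cluster of near-identical stefin genes whose reads can be shared, was at 29.7, 50.04 and 29.2 FPKM for WT against 11.7 and 8.17 FPKM for KO (log2 change -1.75 ± 0.25 SE, adjusted p = 0.00297). Leaving out KO replicate 2 or WT replicate 3 brought the number of cystatins that fell to 5 and 4. Their median was -1.02 without KO replicate 2 and -0.26 without KO replicate 3.

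**Figure D2:**
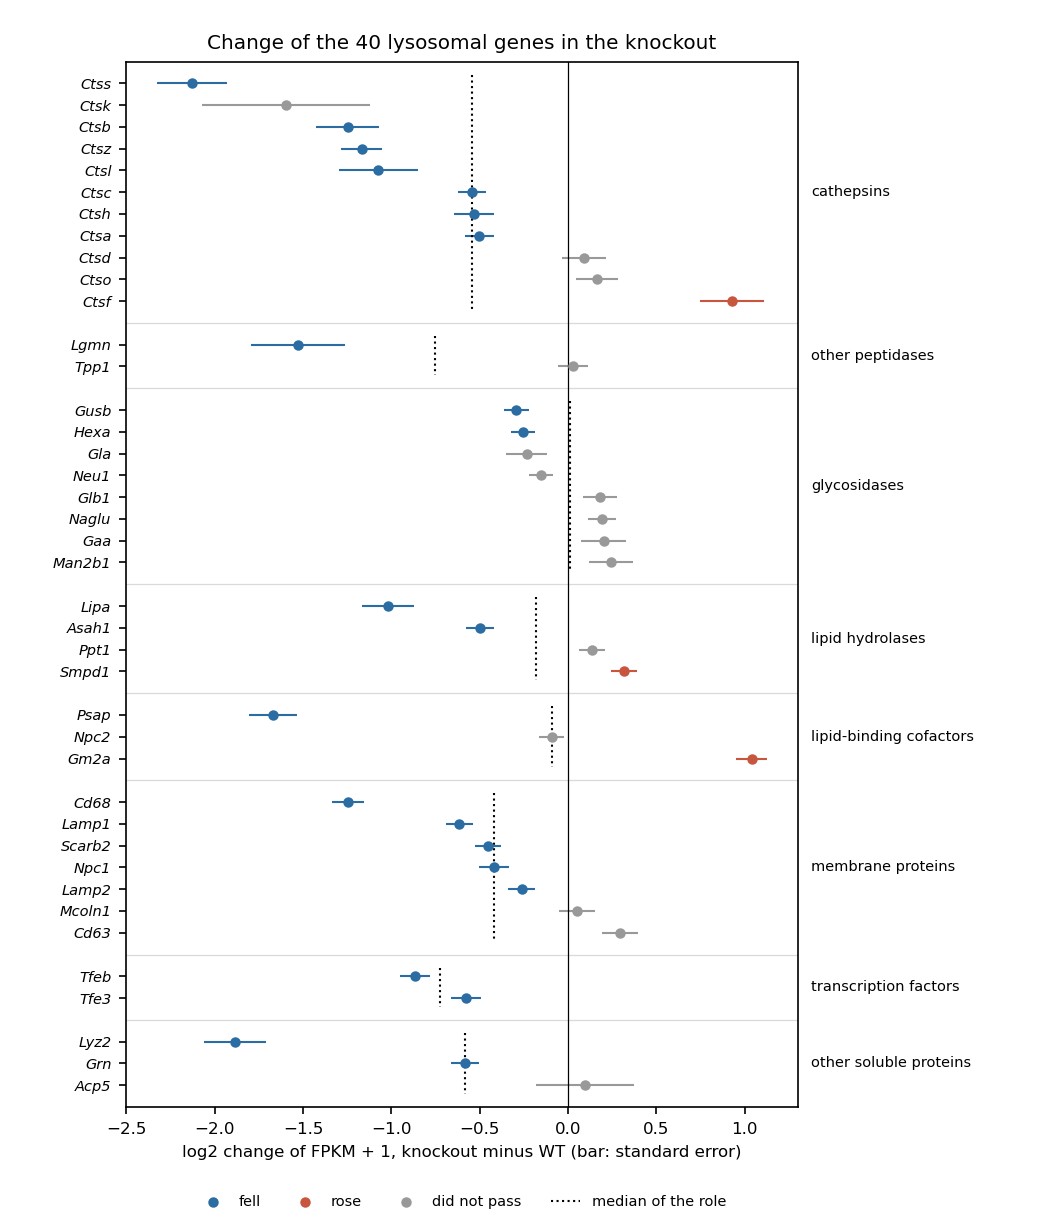
log2 change of FPKM + 1 (knockout minus WT) of the 40 genes by role, with the standard error as bars, and the median of each role dotted. Blue points fell, red points rose and grey points did not pass. The cathepsins reach from -2.13 (Ctss) to 0.93 (Ctsf), while the glycosidases stay between -0.29 and 0.24.

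The glycosidases, which take apart the sugar chains of glycoproteins, glycolipids and glycosaminoglycans, mostly did not pass. Of 8, 2 fell, none rose and 6 did not pass. Their median change was 0.01, and 4 changes were negative and 4 positive. Gusb, β-glucuronidase, was at 105, 113 and 108 FPKM for WT against 89.2 and 87.96 FPKM for KO (log2 change -0.29 ± 0.07 SE, adjusted p = 0.0239). Hexa, the α-subunit gene of the β-hexosaminidase whose release is a common measure of mast cell degranulation, was at 188, 187 and 179 FPKM for WT against 156 and 153 FPKM for KO (log2 change -0.26 ± 0.07 SE, adjusted p = 0.0367). For both genes every knockout library was below every WT library, by a small margin. Gusb lost its call without WT replicate 1, 2 or 3 (adjusted p = 0.05, 0.109 and 0.0858). It also lost its call with the sex covariate (0.209) and under median-of-ratios and upper-quartile scaling (0.0507 and 0.0708). Hexa lost its call without any library other than KO replicate 2 (adjusted p = 0.117, 0.144, 0.0986 and 0.0584). It also lost its call under each of the 3 scalings (0.0588 to 0.105), without the mean-variance trend (0.0682) and with the sex covariate (0.162).

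The other glycosidases did not pass. Gla, α-galactosidase A (deficient in Fabry disease), was at 25.8, 32.5 and 31.4 FPKM for WT against 26.7 and 23.7 FPKM for KO (log2 change -0.23, adjusted p = 0.196), and Neu1, the lysosomal sialidase, at 34.8, 35.6 and 36.5 FPKM for WT against 32.4 and 31.4 FPKM for KO (log2 change -0.15, adjusted p = 0.164). Glb1, β-galactosidase, was at 107, 123 and 128 FPKM for WT against 128 and 142 FPKM for KO (log2 change 0.18, adjusted p = 0.237). Naglu, which degrades heparan sulfate, was at 22.4, 24.2 and 23.2 FPKM for WT against 25.6 and 27.9 FPKM for KO (log2 change 0.19, adjusted p = 0.13). Both knockout libraries of Glb1 and Naglu lay above all WT libraries, by less than the test could tell from the spread. Gaa, acid α-glucosidase of glycogen (deficient in Pompe disease), was at 19.5, 24.2 and 25.3 FPKM for WT against 24.2 and 28.9 FPKM for KO (log2 change 0.20, adjusted p = 0.317). Man2b1, the lysosomal α-mannosidase, was at 143, 159 and 159 FPKM for WT against 158 and 209 FPKM for KO (log2 change 0.24, adjusted p = 0.211), with KO replicate 3 apart from the rest, and without KO replicate 2 it passed as higher (adjusted p = 0.0156).

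Among the 4 lipid hydrolases 2 fell and 1 rose, with a median of -0.18. Lipa, the acid lipase that frees cholesterol and fatty acids from lipoprotein esters, was at 77.6, 110.4 and 105 FPKM for WT against 48.7 and 45.6 FPKM for KO (log2 change -1.02 ± 0.15 SE, adjusted p = 0.00341). Asah1, acid ceramidase, was at 94.7, 108 and 97.7 FPKM for WT against 69.6 and 71.05 FPKM for KO (log2 change -0.50 ± 0.08 SE, adjusted p = 0.00495), a call that was lost with the sex covariate (adjusted p = 0.0606). Smpd1, the acid sphingomyelinase that makes ceramide, was the member that rose, at 21.9, 21.8 and 21.98 FPKM for WT against 26.6 and 28.6 FPKM for KO (log2 change 0.32 ± 0.07 SE, adjusted p = 0.0206). The WT values of Smpd1 were almost equal and both knockout values higher, by 1.26 times, but the call was lost without any library other than KO replicate 2 (adjusted p = 0.0592, 0.0807, 0.0736 and 0.0621) and with the sex covariate (0.138). Ppt1, which removes palmitate from proteins, did not pass, at 56.8, 56.5 and 59.5 FPKM for WT against 60.3 and 66.4 FPKM for KO (log2 change 0.13, adjusted p = 0.252).

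The proteins that bind lipids and hand them to enzymes or transporters went in opposite directions, with 1 of 3 lower and 1 higher. Psap, the precursor of the saposins, which help several enzymes to degrade sphingolipids, was at 2169, 2648 and 2333 FPKM for WT against 836 and 664 FPKM for KO (log2 change -1.67 ± 0.14 SE, adjusted p = 0.000428). It fell by 3.18 times, from a level in WT close to that of Ctsd. Gm2a, the activator that presents the ganglioside GM2 to β-hexosaminidase, was at 95.4, 88.5 and 89.6 FPKM for WT against 174 and 204 FPKM for KO (log2 change 1.04 ± 0.09 SE, adjusted p = 0.000505). It rose by 2.07 times, and both knockout libraries were far above the highest WT library. Npc2, which binds cholesterol in the lysosome, was at 156, 164 and 157 FPKM for WT against 153 and 145 FPKM for KO and did not pass (log2 change -0.09, adjusted p = 0.404).

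Of the 7 membrane proteins 5 fell, none rose and 2 did not pass, with a median of -0.42. Without WT replicate 3 the number that fell was 3, and with the sex covariate it was 2. Cd68, macrosialin, a heavily glycosylated protein of macrophage endosomes and lysosomes, was at 105, 122 and 103 FPKM for WT against 45.96 and 45.3 FPKM for KO (log2 change -1.24 ± 0.09 SE, adjusted p = 0.000335). Lamp1, a main glycoprotein of the lysosomal membrane, was at 429, 454 and 422 FPKM for WT against 287 and 281 FPKM for KO (log2 change -0.62 ± 0.08 SE, adjusted p = 0.00162). In both, the knockout libraries were close to each other and below all WT libraries. Lamp2, the related protein needed for fusion with autophagosomes, was at 153, 169.7 and 162 FPKM for WT against 138 and 131 FPKM for KO (log2 change -0.26 ± 0.08 SE, adjusted p = 0.0475). The call of Lamp2 held only with the other pseudocount and without KO replicate 2 among the alternatives. It was lost without each of WT replicates 1, 2 and 3 and KO replicate 3 (adjusted p = 0.0657, 0.176, 0.15 and 0.105).

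Scarb2, a membrane receptor that carries enzyme to the lysosome, was at 24.1, 25.3 and 24.2 FPKM for WT against 18.1 and 17.2 FPKM for KO (log2 change -0.45 ± 0.07 SE, adjusted p = 0.00531; 0.0595 with the sex covariate). Npc1, which moves cholesterol out through the membrane, was at 23.2, 24.5 and 26.3 FPKM for WT against 17.4 and 18.97 FPKM for KO (log2 change -0.42 ± 0.09 SE, adjusted p = 0.0138), and its call was lost without WT replicate 3 (adjusted p = 0.0542) and with the sex covariate (0.139). Mcoln1, a calcium channel of the lysosome and a target of TFEB, was at 13.2, 11.9 and 14.8 FPKM for WT against 13.6 and 13.98 FPKM for KO (log2 change 0.05, adjusted p = 0.76). Cd63, a tetraspanin of lysosomes and of mast cell and basophil granules, was at 1134, 1199.5 and 1219 FPKM for WT against 1571 and 1343 FPKM for KO (log2 change 0.30 ± 0.10 SE, adjusted p = 0.0853). Both knockout values of Cd63 were above all WT values, and it passed as higher without KO replicate 3 (adjusted p = 0.0221) and under total scaling (0.0297).

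Of the remaining soluble proteins, lysozyme changed most. Lyz2, which cleaves bacterial cell walls and is made in bulk by macrophages and neutrophils, was at 6477, 5178 and 4522 FPKM for WT against 1587 and 1311 FPKM for KO (log2 change -1.89 ± 0.17 SE, adjusted p = 0.000602). WT replicate 1 held the highest and KO replicate 3 the lowest level, and the groups were far apart. The neutrophil markers summed to 22093 to 32783 FPKM in WT and to 16466 and 12702 FPKM in KO replicates 2 and 3, and their part in the change of Lyz2 was not tested. Its paralog Lyz1 was at 541, 430.3 and 366 FPKM for WT against 141 and 102 FPKM for KO, and reads can be shared between the 2 genes. Grn, progranulin, which is cut into granulins in the lysosome, was at 359, 397 and 367 FPKM for WT against 249.7 and 249 FPKM for KO (log2 change -0.58 ± 0.08 SE, adjusted p = 0.0024). Acp5, the tartrate-resistant acid phosphatase of osteoclasts and macrophages, was at 10.98, 24.1 and 18.6 FPKM for WT against 20.1 and 16.7 FPKM for KO and did not pass (log2 change 0.10 ± 0.28 SE, adjusted p = 0.844). Its lowest and highest values were both in WT.

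**Figure D3:**
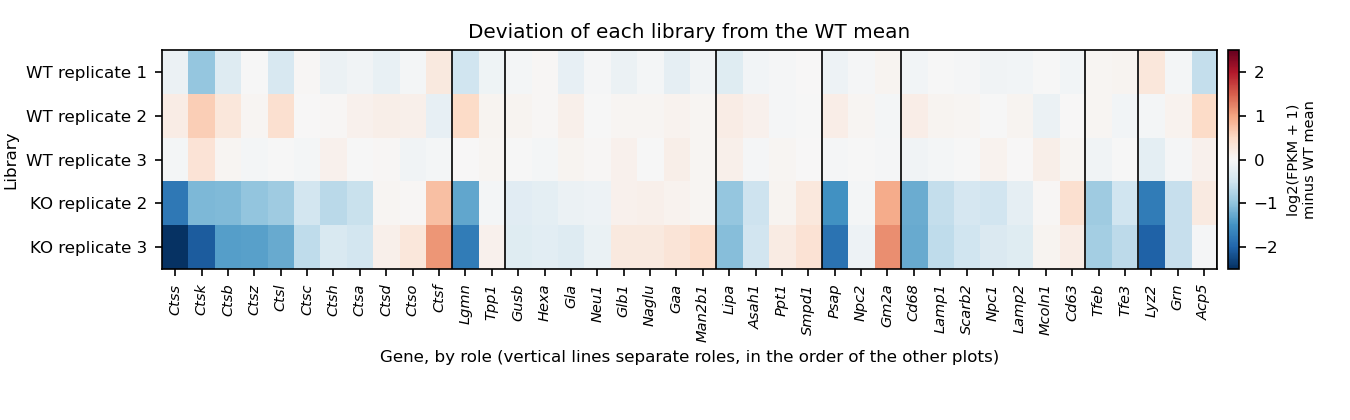
Deviation of each library from the WT mean of the same gene, on the log2(FPKM + 1) scale, for the 40 genes by role. Both knockout rows are blue for most cathepsins, Lgmn, Lipa, Psap, Cd68 and Lyz2 and red for Ctsf and Gm2a, and the WT row of replicate 1 is blue for Ctsk, Lgmn and Acp5.

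KO replicate 3 was lower than KO replicate 2 for 17 of the 22 genes that fell and higher for all 3 that rose. Over all genes, KO replicate 3 was the lower for 61.9% of those that fell and the higher for 69.7% of those that rose. Among the monocyte and macrophage markers, the median deviation from the WT mean on the log2 scale was -1.23 in KO replicate 2 and -1.61 in KO replicate 3. That of the mast cell markers was 1.013 and 1.196, while their sum, carried mostly by Cpa3, was 32742 and 28579 FPKM. Whether the libraries' make-up has a part in this order was not tested. In the authors' deposited table, 8 of the 40 genes had an adjusted p under 0.05, of which 7 were lower (Psap, Lyz2, Ctss, Tfeb, Ctsk, Lgmn and Ctsb) and 1, Ctsf, higher. The authors' deposited table gave 7.79e-30 for Psap, 2.32e-16 for Lyz2 and 2.6e-08 for Ctss, and of the 8 genes 7 were called here in the same direction, Ctsk being the exception. The other members called here did not have an authors' adjusted p under 0.05. These included Ctsz (0.169), Ctsc, Lipa (0.297), Grn (0.738), Cd68 (0.137), Lamp1 (0.754), Tfe3 (0.0937) and Gm2a (0.32), each called under every alternative.

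The rest of the lysosome was followed in further lists of genes, beside those of the MiT factors and the cystatins. Over all tested genes 13.0% fell and 9.08% rose. Of 30 other hydrolases 8 fell and 1 rose, with a median of 0.02 that changed sign in 6 of the 13 alternatives. Without KO replicate 2 the number that rose was 4. Scpep1, a serine carboxypeptidase related to Ctsa, was at 31.4, 34.7 and 31.6 FPKM for WT against 11.4 and 9.98 FPKM for KO (log2 change -1.53 ± 0.09 SE, adjusted p = 0.000236). Prcp, a lysosomal prolylcarboxypeptidase, was at 27.8, 24.5 and 23.6 FPKM for WT against 11.6 and 11.5 FPKM for KO (log2 change -1.07 ± 0.09 SE, adjusted p = 0.000483). Ids, the sulfatase of heparan and dermatan sulfate that is deficient in Hunter syndrome, rose and was at 19.7, 19.2 and 19.4 FPKM for WT against 42.2 and 44.7 FPKM for KO (log2 change 1.12 ± 0.07 SE, adjusted p = 0.000242). The knockout held more than 2 times the WT level of Ids and below 0.5 times the WT level of Scpep1 and Prcp, with no overlap.

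Of 18 genes of the V-ATPase, the proton pump that acidifies the lysosome, 7 fell (38.9%) and none rose, with a median of -0.27. A negative change was seen for 17 of the 18. Over all tested genes 13.0% fell and 57.0% had a negative change. Tcirg1, the a3 subunit gene found in osteoclasts and macrophages, was at 66.1, 75.2 and 70.2 FPKM for WT against 36.8 and 38.1 FPKM for KO (log2 change -0.89 ± 0.08 SE, adjusted p = 0.000542). Atp6v0d2, whose values stand above with those of Ctsk, fell by 1.19 ± 0.30 SE on the log2 scale (adjusted p = 0.0312). Its call was lost without any library other than WT replicate 1 (adjusted p = 0.0646, 0.0812, 0.0628 and 0.164), without the filter on low values (0.0574) and with the sex covariate (0.133). Without KO replicate 2, 12 of the pump genes passed as lower and the median was -0.40, and with the sex covariate 3 passed.

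Of 22 other membrane genes of the lysosome 12 fell (54.5%, against 13.0% of all tested genes) and none rose, with a median of -0.37. Slc11a1, the metal transporter of macrophage phagosomes, was at 12.2, 15.2 and 15.9 FPKM for WT against 5.94 and 5.16 FPKM for KO (log2 change -1.23 ± 0.13 SE, adjusted p = 0.000882). Slc29a3, a nucleoside transporter, was at 12.1, 14.4 and 12.1 FPKM for WT against 5.18 and 5.02 FPKM for KO (log2 change -1.18 ± 0.10 SE, adjusted p = 0.000527). For both, every knockout value was below 0.5 times the lowest WT value. Of 18 genes that sort enzymes to the lysosome, 4 fell (22.2%, against 13.0% of all tested genes) and 1 rose. Their median was -0.15. Without KO replicate 2 the median was -0.0731 and 2 rose, and with the sex covariate 2 fell. Igf2r, the large mannose 6-phosphate receptor, was at 4.61, 5.88 and 4.76 FPKM for WT against 2.1 and 1.82 FPKM for KO (log2 change -1.03 ± 0.13 SE, adjusted p = 0.00184), and Sort1, sortilin, at 25.3, 26.4 and 24.6 FPKM for WT against 13.8 and 13.7 FPKM for KO (log2 change -0.85 ± 0.07 SE, adjusted p = 0.000516). Gnptab, which encodes the enzyme that adds the mannose 6-phosphate tag, rose and was at 14.5, 14.9 and 15.99 FPKM for WT against 21.99 and 23.6 FPKM for KO (log2 change 0.56 ± 0.08 SE, adjusted p = 0.00348). M6pr, the small mannose 6-phosphate receptor, had a log2 change of -0.10 and did not pass (adjusted p = 0.327).

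**Figure D4:**
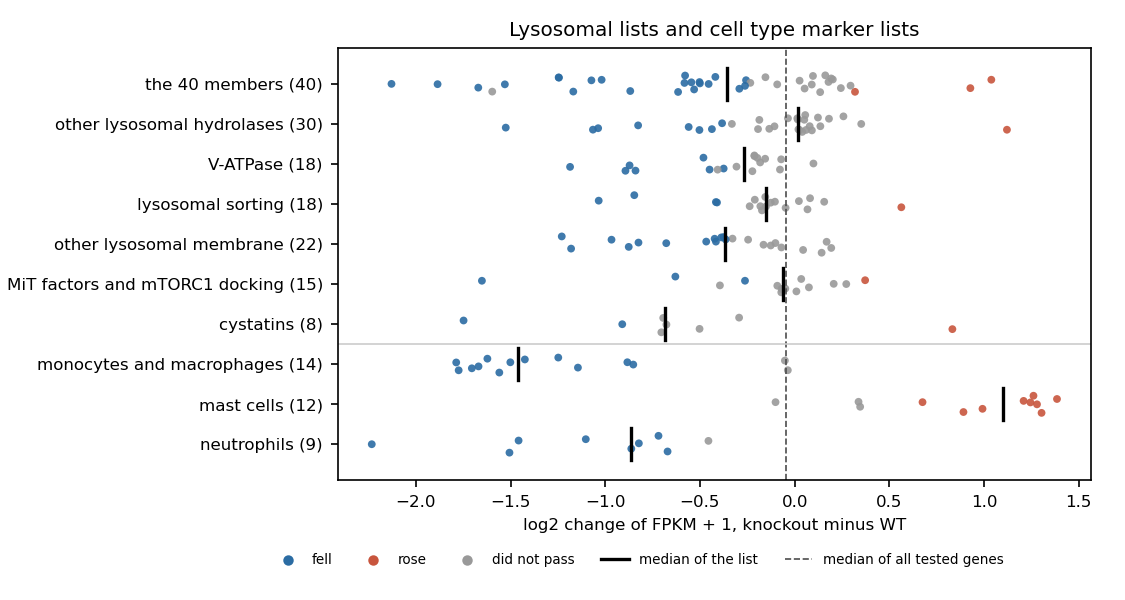
log2 change (knockout minus WT) of each tested gene in the 40-gene list, the other lysosomal lists and 3 marker lists, with the median of each list as a black bar and that of all tested genes dashed. The 40 genes have a median of -0.36 and the other hydrolases 0.02, while the monocyte and macrophage markers have -1.46 and the mast cell markers 1.10.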

How the data were processed

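Bone marrow cells were sequenced as mRNA selected with oligo(dT), per the labels' protocols. Per the submitters' processing notes, the tools were HISAT, StringTie 1.2.1 and edgeR and the build mm10; the role of each tool, strand and annotation were not given. The deposited table holds FPKM by gene and library to 2 decimals, per the file headers. The smallest value above 0 was 0.01 FPKM, the rounding step, so that whole reads could not be recovered and counting error is unknown. The authors also deposited a signed fold (a score), p-values and adjusted p-values, used only where they are named as the authors' values.

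FPKM were analysed with limma 3.58.1 in R 4.3.3 on log2(FPKM + 1). The model held genotype alone, used a mean-variance trend and left 3 residual degrees of freedom. Genes with at least 1 FPKM in at least 2 libraries were tested. Benjamini-Hochberg adjustment ran over the 11365 tested genes and calls needed an adjusted p under 0.05. Fold changes on this scale understate those of low genes. Ratios given in times are of mean FPKM. The smallest two-sided p of an exact permutation of 3 against 2 libraries is 0.2, and none was used. The alternatives were a pseudocount of 0.1, no filter, 3 scalings, no trend, a sex covariate (Xist above 1 FPKM), the replicate number as a block, and leaving out each library.

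The members and lists were chosen with earlier results of these data known, so no test of a list as a whole was made. All members are reported by role. Of each other lysosomal list, at most the 2 largest called rises and falls were named, with M6pr added after its values were seen. Promoter sequences are from RefSeq (GRCm38.p6), and exon overlaps from the GENCODE annotation of GRCm38.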

Additional observations from a re-analysis of the deposited data

How the results depend on the processing

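With the sex covariate 1312 genes were called in all, 13 members fell and 1 rose, against 2507, 22 and 3. Leaving out each library in turn gave 1623 to 2659 calls over all genes, 17 to 22 members that fell, 2 to 4 that rose and a member median of -0.40 to -0.34. The lowest number of calls over all genes, 1623, was that without WT replicate 2, and the lowest number of members that fell that without WT replicate 3. The member median was -0.29 after upper-quartile scaling, and each of the 3 scalings moved the median of all genes by less than 0.1. The replicate block, which sets WT replicates 2 and 3 against knockout replicates 2 and 3 with 1 residual degree of freedom, gave 2058 calls over all genes, with 20 members lower and 2 higher; the deviations of libraries with the same number correlated at -0.029 and 0.099, so that the numbers are not shown to pair the samples. Signs turned for genes that were not called: Tpp1 was at -0.0235 under the replicate block and -0.0507 to 0.10 when single libraries were left out, Acp5 at -0.20 under the block and -0.20 to 0.34, and Mcoln1 at -0.0173 to 0.13. The median of the glycosidases was -0.0392 under the block and -0.0452 to 0.0368 without single libraries. That of the other hydrolases was -0.0147 with the sex covariate, -0.0589 under the block and -0.0811 to 0.0101 without single libraries, and that of the MiT and docking list 0.0054 after upper-quartile scaling and -0.0896 to 0.0045 without single libraries. Counting error is unknown for every value, and 2 knockout libraries limit what could be called.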

Other observations

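Further endosomal or lysosomal enzyme genes outside the lists were looked at after their values were seen. Ctse, an aspartic protease of endosomes, was at 134, 131 and 143 FPKM for WT against 176 and 200.2 FPKM for KO and rose (log2 change 0.46 ± 0.09 SE, adjusted p = 0.00868; 0.0605 with the sex covariate). Ifi30, the thiol reductase that opens disulfide bonds of antigens, was at 84.3, 86.95 and 81.6 FPKM for WT against 68.2 and 56.8 FPKM for KO and fell (log2 change -0.43 ± 0.09 SE, adjusted p = 0.0162; 0.0997 with the sex covariate and 0.0632 without WT replicate 2).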
